A study of Xenopus laevis with 7 samples.

Results

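The cadherins, protocadherins and catenins of the early frog gastrula are described here by their messenger RNA levels in blastopore lips and in the whole embryo. The members are the transcripts whose human match, assigned by the authors, is a numbered CDH gene, a PCDH gene, or a gene whose symbol starts with CTNNA, CTNNB or CTNND. This rule took 221 of the 44421 transcripts in the deposited expression table, of which 69 carry a frog gene symbol of their own and 152 only a transcript or locus number.

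Cadherins are transmembrane proteins that hold neighbouring cells together by binding the same or a similar cadherin on the next cell. Inside the cell their tails bind beta-catenin, which binds alpha-catenin and through it the actin skeleton, while p120 catenin keeps the cadherin at the membrane; beta-catenin is also the transcriptional effector of Wnt signalling, which sets up the dorsal side of the frog embryo. Protocadherins have similar outer domains but tails that do not bind catenins, and in Xenopus paraxial protocadherin (PAPC, a product of the pcdh8 locus) is known for a role in the cell movements of organizer mesoderm.

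Messenger RNA was sequenced from wild-type Xenopus laevis embryos of Nasco frogs at stage 10.5, when the blastopore lip has appeared and gastrulation movements have begun. There were 3 libraries of dorsal lips, which contain the Spemann organizer, 3 libraries of ventral lips from the opposite side, and 1 library of whole embryos. The file headers number the lip libraries as experiments 1 to 3 and place the whole embryo in experiment 1. The labels give neither the number of lips in a library nor the clutch of each replicate. A p-value here therefore reflects how far these libraries scatter, and that scatter could be technical. X. laevis is an allotetraploid, and many genes have a copy on a long (L) and on a short (S) chromosome of each homeologous pair, marked .L and .S.

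Levels are in RPKM, reads scaled to transcript length and to mapped reads, and the libraries held between 26438016 and 37998993 recovered reads, so that 1 read over 1 kb was worth 0.0257 to 0.0369 RPKM. The lip labels fit their markers. All 11 tested transcripts of the dorsal markers CHRD, GSC, NOG, FRZB and ADMP lay higher in dorsal lips with the experiment as a block in limma, and their summed level was 1223 to 1420 RPKM in dorsal lips against 14.3 to 60.2 RPKM in ventral lips. All 12 of the ventral markers SZL, BAMBI, WNT8A, BMP4 and VENTX lay higher in ventral lips in the same fit, with sums of 79.1 to 184 RPKM in dorsal lips against 753 to 1357 RPKM in ventral lips. Without the block, 9 of the 11 dorsal and 5 of the 12 ventral marker transcripts passed. No transcript of either list was at 0 in all libraries of a lip. The libraries of experiment 1 stood apart from those of experiments 2 and 3, and values are therefore given by experiment where they bear on a result.

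The 221 members differed widely in whether they were transcribed at all. In all 7 libraries, 115 of them (52.0%) were listed at 0, against 20.5% of the whole table. Clustered protocadherins, counted by a human match to the PCDHA and PCDHG genes that in vertebrates give neurons their surface identities, made up most of these. Of the 115 transcripts so matched, 104 were at 0 throughout, and the highest value any of them reached was 0.282 RPKM. The L and S transcripts named pcdha13 were matched to PCDH10 and are therefore counted with the non-clustered protocadherins. They averaged 1.34 and 1.60 RPKM in dorsal lips and 1.79 and 1.98 RPKM in ventral lips. A listed 0 in a library allows up to 3 reads, or 0.0771 to 0.111 RPKM for a transcript of 1 kb, and this limit covers counting error only. Of the numbered CDH genes other than CDH17 and CDH23, 1 of 44 transcripts was at 0 in all 7 libraries; of the 5 transcripts matched to CDH17 and CDH23, 0 were. Of the 39 non-clustered protocadherins 7 were, and of the 13 catenins 3. The 5 transcripts of catenin-related genes (CTNNAL1, CTNNBL1 and CTNNBIP1, which share the name or bind beta-catenin) were all detected. The 6 lip libraries averaged 1 RPKM or more for 29 members, namely 8 cadherins, 1 transcript matched to CDH23, 6 catenins, 5 catenin-related transcripts and 9 non-clustered protocadherins. These 29 were tested; the other 192 members lie under that limit in part because they are low in these libraries, so the 29 do not stand for the whole family.

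**Figure D1:**
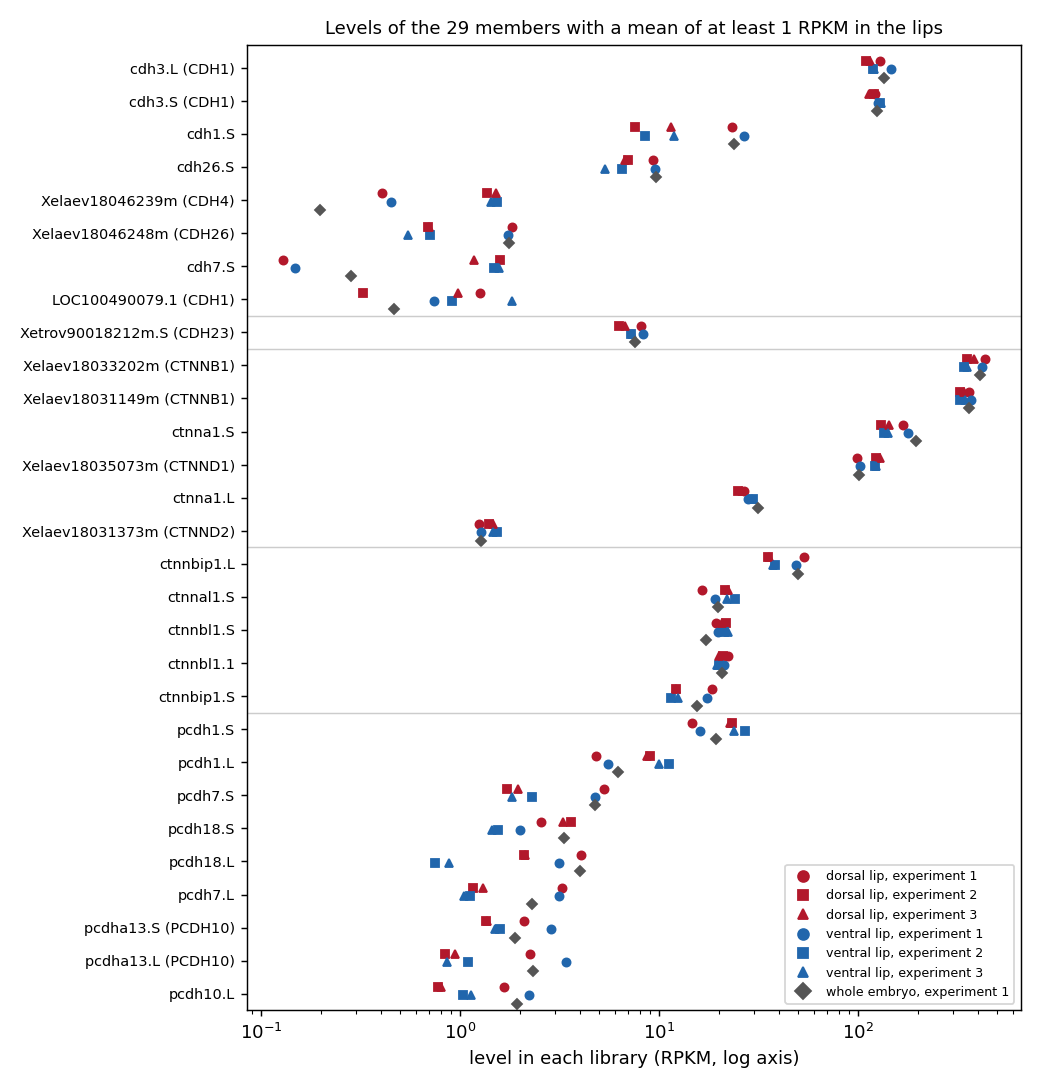
Level of each of the 29 members with a mean of at least 1 RPKM in the lips, in RPKM on a log axis; red points are dorsal lips, blue points ventral lips (circle, square and triangle for experiments 1, 2 and 3) and grey diamonds the whole embryo. Catenins and the cdh3 copies sit at the right, the protocadherins lie between 0.749 and 27.1 RPKM, and for cdh1.S, cdh7.S, pcdh7.L and pcdh7.S the circles of experiment 1 stand apart from the squares and triangles in both lips.

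Catenins were the most abundant members. The 2 transcripts matched to CTNNB1, beta-catenin, together held 69.7% to 72.8% of the summed RPKM of the 13 catenin members in every library. That sum leaves out JUP (gamma-catenin), which the rule does not take and which is counted below with the junction partners. jup.L and jup.S averaged 74.0 and 41.7 RPKM in dorsal lips and 74.6 and 41.8 RPKM in ventral lips. Xelaev18033202m stood at 435, 354 and 384 RPKM in dorsal lips of experiments 1 to 3, at 421, 339 and 351 RPKM in ventral lips and at 411 RPKM in the whole embryo. Xelaev18031149m stood at 358, 324 and 340 RPKM in dorsal lips, at 368, 324 and 343 RPKM in ventral lips and at 361 RPKM in the whole embryo. The dorsal and ventral values of both transcripts overlapped. For Xelaev18033202m the log2 difference, dorsal minus ventral on log2(RPKM + 0.5), was 0.08, with a 95% interval of 0.0045 to 0.156 in the fit with the experiment as a block, and for Xelaev18031149m it was -0.02, with an interval of -0.09 to 0.05. On RPKM as deposited and with the block, a dorsal excess of beta-catenin RNA above about 0.16 on the log2 scale lies outside both intervals. This bound shifts with the scaling and with the fit. Without the block and with 1 library left out, the log2 difference of Xelaev18033202m ran from 0.0002 to 0.176. The median log2 difference of all transcripts tested was -0.053, and median-ratio scaling took that of Xelaev18033202m to 0.126 in the fit without the block. The protein was not measured.

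Alpha-catenin, which links the complex to actin, came mainly from the S copy. ctnna1.S stood at 168, 130 and 143 RPKM in dorsal lips, at 178, 135 and 140 RPKM in ventral lips and at 195 RPKM in the whole embryo, so that the lips overlapped. ctnna1.L was at 26.6, 24.8 and 25.9 RPKM in dorsal lips, at 27.8, 29.4 and 29.2 RPKM in ventral lips and at 31.4 RPKM in the whole embryo. Each dorsal value of ctnna1.L was below each ventral value, with a log2 difference of -0.16 (SE 0.0879, limma adjusted p = 1.00; 0.137 with the experiment as a block). p120 catenin (Xelaev18035073m, matched to CTNND1) was at 98.6, 123 and 129 RPKM in dorsal lips, at 102, 122 and 123 RPKM in ventral lips and at 100.4 RPKM in the whole embryo, and its lowest values were those of experiment 1 on either side. A second transcript matched to CTNND1, Xelaev18037256m, was listed at 0 in all 7 libraries. CTNND2, a p120 relative known from neurons, reached 1.24 to 1.54 RPKM in the lips (Xelaev18031373m), and the 5 transcripts matched to CTNNA2, the neural alpha-catenin, stayed at or under 0.343 RPKM, with 2 of them at 0 throughout. Among the catenin-related genes, ctnnbip1.L, whose product ICAT keeps beta-catenin from binding TCF factors, was at 53.1, 35.1 and 35.6 RPKM in dorsal lips and at 48.8, 38.3 and 37.3 RPKM in ventral lips, highest in experiment 1 in both lips. The alpha-catulin gene ctnnal1.S lay between 16.3 and 24.0 RPKM in the lips. The transcripts of ctnnbl1, named for repeats like those of beta-catenin and associated with splicing, lay between 19.4 and 22.1 RPKM.

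Among the cadherins, cdh3 dominated. This gene codes for C-cadherin, the main maternal cadherin of the Xenopus blastula and gastrula, and the authors' BLAST matched both of its copies to human CDH1. Its 2 copies held 86.3% to 91.4% of the summed RPKM of the 44 cadherin transcripts in each library. cdh3.L was at 128, 110 and 114 RPKM in dorsal lips, at 147, 119 and 120 RPKM in ventral lips and at 135 RPKM in the whole embryo. cdh3.S was at 121, 120 and 114 RPKM in dorsal lips, at 125, 128 and 129 RPKM in ventral lips and at 125 RPKM in the whole embryo. In each of the 3 experiments both copies lay lower in the dorsal than in the ventral lip, and for cdh3.S the groups did not overlap. The log2 differences were small, at -0.13 (SE 0.118) for cdh3.L and -0.11 (SE 0.0721) for cdh3.S, and did not pass the test (limma adjusted p = 1.00 for both; 0.109 and 0.155 with the experiment as a block). The 95% intervals with the block were -0.225 to -0.0368 for cdh3.L and -0.207 to -0.0129 for cdh3.S. Both hold the median log2 difference of all transcripts tested, -0.053. With median-ratio scaling, the log2 differences were -0.085 for cdh3.L and -0.064 for cdh3.S.

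E-cadherin, the cadherin of ectoderm and later epithelia, was the next cadherin by level, with nearly all of its reads on the S copy. cdh1.S was at 23.1, 7.51 and 11.4 RPKM in dorsal lips, at 26.8, 8.46 and 11.9 RPKM in ventral lips and at 23.6 RPKM in the whole embryo. Its lips of experiment 1 stood 2.54-fold above those of experiments 2 and 3, a larger gap than any between the lips, where the log2 difference was -0.14 (SE 0.552, limma adjusted p = 1.00; 0.187 with the experiment as a block). Epidermal ectoderm markers, given here because the dissected pieces may carry outer cells, summed to 810 to 861 RPKM in dorsal lips against 857 to 897 RPKM in ventral lips and to 735 RPKM in the whole embryo, with 0 of 14 transcripts at 0 throughout and the marker KRT5 not analysed here. Of 12 tested, 1 (dlx5.S) was lower in dorsal lips without the block; with it 5 were lower (dlx5.S, dlx5.L, foxi1.S and the TFAP2A transcripts Xelaev18031635m and Xelaev18033390m) and 1 was higher, krt8.L. The keratins made up most of the sum: krt8.L alone averaged 318 ± 5.30 RPKM in dorsal lips against 282 ± 8.13 RPKM in ventral lips, while dlx5.S averaged 6.52 ± 1.02 RPKM in dorsal lips against 33.8 ± 7.56 RPKM in ventral lips and Xelaev18031635m 15.8 ± 2.56 RPKM in dorsal lips against 65.7 ± 20.0 RPKM in ventral lips (SD, n = 3 each). The part of these markers in the level of cdh1.S was not tested. N-cadherin, the neural cadherin, was barely transcribed: its transcripts Xelaev18031953m and Xelaev18033674m stayed at or under 0.175 RPKM, with 2 to 24 and 3 to 13 reads in the dorsal libraries against 1 to 7 and 2 to 7 in the ventral ones. Of the others, cdh26.S was at 9.30, 7.0 and 6.71 RPKM in dorsal lips and at 9.56, 6.52 and 5.36 RPKM in ventral lips. A transcript matched to CDH23, a cadherin of hair-cell tip links in mammals (Xetrov90018212m.S), was at 8.05, 6.29 and 6.69 RPKM in dorsal lips and at 8.30, 7.21 and 7.30 RPKM in ventral lips. Both sets overlapped between the lips. The type II cadherins cdh6, cdh8, cdh9, cdh10 and cdh11 had at most 15 reads in any library, and VE-cadherin (cdh5.L), an endothelial protein, reached 0.656 RPKM at most. Not all type II cadherins were this low: cdh7.S was among the members tested. The level of cdh20.S was higher in experiment 1, as given below for both.

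Non-clustered protocadherins summed to 48.0 to 48.9 RPKM in dorsal lips, 47.3 to 52.7 RPKM in ventral lips and 54.3 RPKM in the whole embryo. The largest part came from pcdh1, known in Xenopus as axial protocadherin for its expression in the notochord, with 40.6% to 72.6% of the sum. pcdh1.S was at 14.7, 23.3 and 22.7 RPKM in dorsal lips, at 16.0, 27.1 and 23.8 RPKM in ventral lips and at 19.2 RPKM in the whole embryo. pcdh1.L was at 4.79, 8.99 and 8.66 RPKM in dorsal lips, at 5.50, 11.1 and 9.97 RPKM in ventral lips and at 6.18 RPKM in the whole embryo. Both copies lay lower in the dorsal lip in 3 of 3 experiments and lowest in experiment 1. NF-protocadherin (pcdh7), an ectodermal protocadherin in Xenopus, had 5.28, 1.72 and 1.96 RPKM from its S copy in dorsal lips and 4.74, 2.29 and 1.82 RPKM in ventral lips.

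Which adhesion genes distinguish the organizer from the opposite lip is the question of the dorsal against ventral comparison. None of the 29 members tested passed the threshold of 0.05 for the adjusted p in limma, where 54 of all 16514 transcripts did (0.327%), and 1 of 29 had an unadjusted p under 0.05, against 3.12% of all. With the experiment as a block, again 0 of 29 passed, against 777 of all (4.71%), although 10 of 29 had an unadjusted p under 0.05, against 26.3% of all. Limma voom on recovered reads without the block called 0 members as well, against 46 of all transcripts (0.279%). The median log2 difference of the 29 was -0.04, against -0.05 over all transcripts tested, and 20 of 29 lay below 0, against 65.2% of all. Dorsal and ventral values did not overlap for 3 members, ctnna1.L, cdh3.S and pcdh18.S, against 6.9% of all transcripts. Of the 10 members with a blocked unadjusted p under 0.05, pcdh18.L, pcdh18.S and the CTNNB1 transcript Xelaev18033202m lay higher in dorsal lips and pcdh1.L, pcdh1.S, pcdh10.L, cdh3.L, cdh3.S, cdh1.S and ctnna1.L lower. In bulk tissue, fewer cells of a type and less RNA per cell cannot be told apart.

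**Figure D2:**
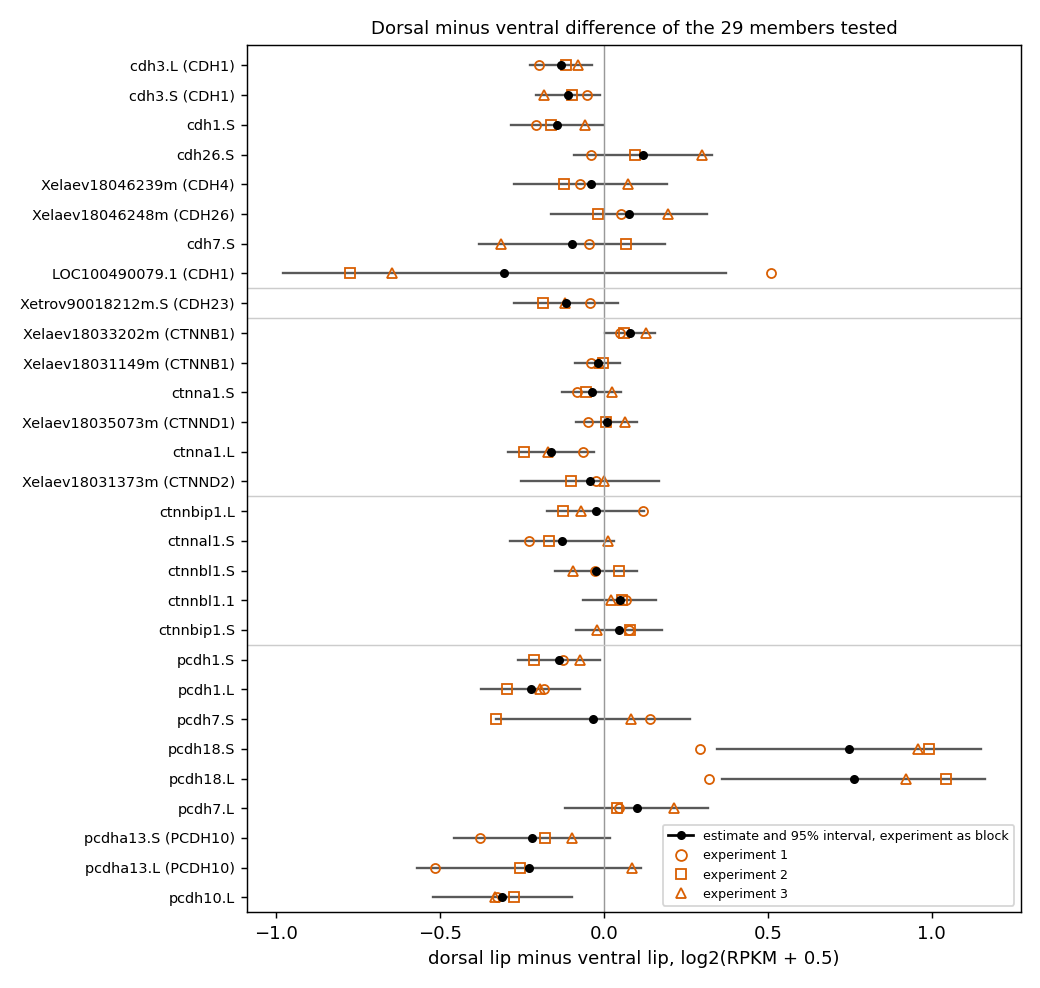
Dorsal minus ventral difference of the 29 members tested, on log2(RPKM + 0.5); black points and lines are the limma estimate with the experiment as a block and its 95% interval, open symbols the difference within each experiment. Both pcdh18 copies stand to the right of all other members, at 0.76 and 0.75, with smaller differences in experiment 1 than in experiments 2 and 3, and the lines of pcdh1.L, pcdh1.S, pcdh10.L, cdh3.L, cdh3.S, cdh1.S and ctnna1.L lie to the left of 0.

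Among the 29 members tested, the largest differences were those of pcdh18, a non-clustered protocadherin whose protein binds the adaptor Dab1 in the mouse. pcdh18.S was at 2.56, 3.58 and 3.26 RPKM in dorsal lips, at 2.0, 1.55 and 1.44 RPKM in ventral lips and at 3.31 RPKM in the whole embryo. pcdh18.L was at 4.03, 2.08 and 2.11 RPKM in dorsal lips, at 3.12, 0.749 and 0.878 RPKM in ventral lips and at 4.01 RPKM in the whole embryo. Every dorsal value of pcdh18.S exceeded every ventral one; for pcdh18.L the ventral lip of experiment 1 lay above the dorsal lips of experiments 2 and 3, though the dorsal lip was higher within each experiment. The dorsal to ventral ratios of experiments 1, 2 and 3 were 1.28, 2.31 and 2.27 for the S copy and 1.29, 2.77 and 2.40 for the L copy.

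The log2 difference of pcdh18.S was 0.75 (SE 0.197, limma adjusted p = 0.655; 0.0658 with the experiment as a block, 95% interval 0.344 to 1.15). That of pcdh18.L was 0.76 (SE 0.483, limma adjusted p = 1.00; 0.0636 with the block, 95% interval 0.361 to 1.16). Without the libraries of experiment 1, both copies passed, with log2 differences of 0.97 for the S copy and 0.98 for the L copy and limma adjusted p of 0.00867 and 0.00765, in a fit that called 4.23% of all transcripts; these were the only members called there. With the block added to those 4 libraries, both copies and LOC100490079.1, a CDH1 match with 4 and 12 reads in the dorsal and 11 and 19 reads in the ventral lips of experiments 2 and 3, passed (3 of 29, against 9.25% of all transcripts). With voom on recovered reads and the block, the S copy passed (limma adjusted p = 0.0325) and the L copy did not (0.0726). The authors' deposited table, whose adjusted p rests on experiments 2 and 3, gives 2.50e-15 for pcdh18.S and 1.29e-09 for pcdh18.L, and the authors' deposited table of dorsal transcripts lists both with ratios of 2.29 and 2.57. Of neural ectoderm markers, 5 of 13 transcripts were higher in dorsal lips without the block and 10 with it, and 0 were at 0 throughout. Those that did not pass were sox2.1 and the SOX3 transcripts Xelaev18038842m and Xelaev18042169m. Their log2 differences were 0.26, -0.06 and 0.12 (limma adjusted p = 0.502, 0.778 and 0.632 with the block). The SOX3 transcripts, the most abundant of the list, averaged 267 and 468 RPKM in dorsal lips against 293 and 458 RPKM in ventral lips. The sums of the list, which include SOX3, were 1127 to 1383 RPKM in dorsal lips against 486 to 1086 RPKM in ventral lips. Of endoderm markers 1 of 15 tested, hhex.L, was higher without the block and 6 with it, all from hhex, gata4 and GATA5. The gata6, foxa1 and MIXL1 transcripts did not pass, with log2 differences from -0.87 (Xelaev18026295m, MIXL1) to 1.25 (gata6.S). Sums were 267 to 480 RPKM in dorsal lips against 248 to 317 RPKM in ventral lips, with 0 of 17 transcripts at 0 throughout and SOX17 not analysed here. The highest average levels in these sums were those of MIXL1 transcripts. Xelaev18028630m averaged 66.9 RPKM in dorsal against 57.7 RPKM in ventral lips, and Xelaev18026293m 64.9 against 72.6 RPKM. The part of either marker list in the pcdh18 difference was not tested.

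pcdh10, which codes for OL-protocadherin and is the neighbour of pcdh18 on chromosomes 1L and 1S in the RefSeq gene table, ran the other way. pcdh10.L was at 1.66, 0.771 and 0.796 RPKM in dorsal lips, at 2.21, 1.04 and 1.13 RPKM in ventral lips and at 1.93 RPKM in the whole embryo. Its lips overlapped because of experiment 1, but the dorsal value was lower in 3 of 3 experiments, with ratios of 0.752, 0.745 and 0.704. The log2 difference was -0.31 (SE 0.334, limma adjusted p = 1.00; 0.101 with the experiment as a block). pcdh10.S, below the limit for testing, was at 0.747, 0.382 and 0.453 RPKM in dorsal lips and at 0.926, 0.769 and 0.770 RPKM in ventral lips, without overlap. Its adjusted p in the authors' deposited table is 0.0213. It was not called in limma without a limit on level and without the block, where 0 of 105 members and 60 of 34738 transcripts passed. Nor was it called with voom, the block and at least 30 reads over the 6 lips. With voom on recovered reads and the block, pcdh10.L and pcdh1.L lay lower in dorsal lips (limma adjusted p = 0.0456 and 0.0294), so that 3 of 29 members passed in that fit, against 9.91% of all transcripts. The 2 transcripts named pcdha13 and matched to PCDH10 had log2 differences of -0.23 for the L copy and -0.22 for the S copy, with limma adjusted p of 0.338 and 0.218 with the block.

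**Figure D3:**
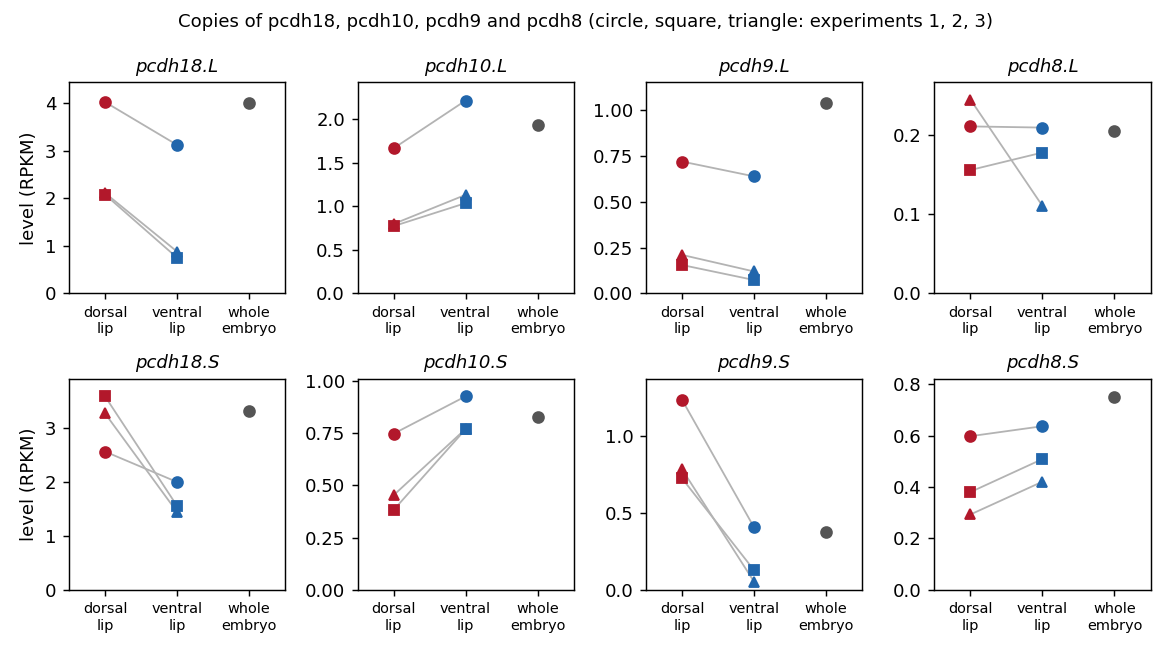
Level in RPKM of the L copies (upper row) and S copies (lower row) of pcdh18, pcdh10, pcdh9 and pcdh8 in dorsal lips (red), ventral lips (blue) and the whole embryo (grey); grey lines join the lips of an experiment. Lines fall towards the ventral lip for pcdh18 and pcdh9, rise for pcdh10 and pcdh8.S, and cross for pcdh8.L.

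Some members with low levels also differed between the lips. pcdh9.S, a protocadherin of the nervous system in mammals, was at 1.23, 0.723 and 0.782 RPKM in dorsal lips, at 0.405, 0.127 and 0.0527 RPKM in ventral lips and at 0.374 RPKM in the whole embryo. These values rest on 151, 81 and 87 reads in dorsal lips against 50, 14 and 5 reads in ventral lips. Every dorsal value exceeded every ventral one, and the ratios were 3.04, 5.67 and 14.8 in experiments 1 to 3. Because its mean was under 1 RPKM, it entered only fits with a lower limit or none. Without a limit on level and without the block it did not pass, and 0 of 105 members did. With voom on transcripts of at least 30 reads over the 6 lips and the block, its log2 difference was 2.19 (SE 0.368, limma adjusted p = 0.0147). That setting was added after the values were seen. The authors' deposited table gives it an adjusted p of 3.45e-10. In the same fit the PCDH19 transcript Xelaev18042154m had a log2 difference of 1.01 (SE 0.242, limma adjusted p = 0.0458), with 1.26, 0.340 and 0.533 RPKM in dorsal lips and 0.431, 0.255 and 0.372 RPKM in ventral lips, which overlapped. In all, 5 of 61 members passed that fit (the others were pcdh18.S, pcdh1.L and pcdh10.L), against 9.12% of all transcripts. The L copy pcdh9.L was at 0.720, 0.155 and 0.210 RPKM in dorsal lips and at 0.639, 0.0729 and 0.120 RPKM in ventral lips, with overlap and with 1.04 RPKM in the whole embryo.

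The rows named pcdh8 were low, and neither passed a test between the lips. pcdh8.L, for which the RefSeq table lists PAPC as a synonym, was at 0.211, 0.156 and 0.245 RPKM in dorsal lips (37, 25 and 39 reads), at 0.210, 0.178 and 0.111 RPKM in ventral lips (37, 28 and 15 reads) and at 0.205 RPKM in the whole embryo (40 reads). pcdh8.S was at 0.598, 0.380 and 0.293 RPKM in dorsal lips (110, 64 and 49 reads), at 0.637, 0.509 and 0.421 RPKM in ventral lips (118, 84 and 60 reads) and at 0.752 RPKM in the whole embryo (154 reads). The L copy overlapped between the lips; the S copy also overlapped, although its dorsal value was lower in 3 of 3 experiments. In the voom fit with the lower limit the log2 differences were 0.26 (SE 0.303, limma adjusted p = 0.659) for pcdh8.L and -0.30 (SE 0.161, limma adjusted p = 0.313) for pcdh8.S. The RefSeq table of a later assembly holds 6 genes named pcdh8 with or without a further number, among them pcdh8.2 next to pcdh8 on chromosomes 2L and 2S, and 2 of these names are rows here; the other 4 were not analysed here, so the level of PAPC as a whole is not given by these rows.

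Genes around the pcdh8 and catenin pathways were counted in the same fits, where without the block 0.248% of all transcripts were called higher and 0.0787% lower in dorsal lips, and with the block 2.37% higher and 2.34% lower. Of 40 tested transcripts of the PAPC pathway and convergent extension, the narrowing movement of gastrulation, 1 was higher in dorsal lips without the block and 9 with it, and 1 was lower with it, with a median log2 difference of 0.06. The Wnt receptor FZD7 (Xelaev18047362m), which PAPC binds in Xenopus, was at 107, 103 and 106 RPKM in dorsal lips and at 59.3, 56.6 and 55.0 RPKM in ventral lips, a log2 difference of 0.89 (SE 0.076, limma adjusted p = 0.0138). Another FZD7 transcript, Xelaev18044942m, was more abundant and differed less. It was at 216, 173 and 187 RPKM in dorsal lips and at 143, 131 and 133 RPKM in ventral lips. Its log2 difference was 0.49 (SE 0.107, limma adjusted p = 0.367 without the block and 0.0091 with it). The receptor ror2.S averaged 2.92 ± 1.42 RPKM in dorsal lips against 1.07 ± 0.651 RPKM in ventral lips, and spry2.L, a Sprouty family antagonist of growth factor signalling, 30.1 ± 2.25 RPKM in dorsal lips against 15.7 ± 2.82 RPKM in ventral lips (SD, n = 3 each; limma adjusted p = 0.00368 and 0.00534 with the block, 1.00 and 0.182 without it).

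Of 5 tested transcripts of cadherin repressors, transcription factors known to bind the E-cadherin promoter in mammals, 2 were matched to ZEB2, 2 to TCF3 (E2A) and 1 was snai1.S; 0 passed without the block and 3 were higher in dorsal lips with it. The ZEB2 transcripts Xelaev18044550m and Xelaev18047069m averaged 11.0 ± 5.37 and 3.92 ± 2.68 RPKM in dorsal lips against 2.25 ± 2.11 and 1.19 ± 1.59 RPKM in ventral lips (limma adjusted p = 0.00392 and 0.0162 with the block). snai1.S averaged 68.3 ± 21.6 RPKM in dorsal lips against 55.8 ± 15.9 RPKM in ventral lips (0.0308 with the block). In the same libraries cdh1.S lay lower in the dorsal lip within each experiment and did not pass, as given above. Its relation to these factors was not tested.

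Of 23 partners of beta-catenin in its destruction and in transcription, 0 passed without the block, and 2 were higher and 1 lower with it. tcf7l1.L, a TCF factor that represses Wnt targets until beta-catenin arrives, was at 54.4, 36.4 and 42.9 RPKM in dorsal lips and at 24.7, 18.4 and 20.3 RPKM in ventral lips (log2 difference 1.05, limma adjusted p = 0.191; 0.00102 with the block). Its groups did not overlap. bcl9.S and chd8.S had log2 differences of 0.30 and -0.31 (limma adjusted p = 0.0461 and 0.0497 with the block). The other copies, tcf7l1.S, bcl9.L and chd8.L, did not pass. Their log2 differences were 0.46, -0.02 and -0.33 (limma adjusted p = 0.0698, 0.794 and 0.0503 with the block). Of 30 junction partners, 2 passed, with the block only, and both were copies of ADAM10, a protease that sheds cadherins in mammals. adam10.S averaged 89.4 ± 4.27 RPKM in dorsal lips against 108 ± 8.0 RPKM in ventral lips, and adam10.L 19.1 ± 1.02 RPKM in dorsal lips against 25.9 ± 3.14 RPKM in ventral lips (SD, n = 3 each; limma adjusted p = 0.0212 and 0.0256). Of 12 transcripts of other cadherin superfamily genes, such as desmosomal cadherins, FAT and CELSR genes, 0 passed without or with the block, and the smallest blocked limma adjusted p was 0.0635, for dsc3.S.

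Homeologs often differed in level. Of 50 member pairs with an L and an S copy, 10 reached a mean of at least 1 RPKM over both copies. In limma on the difference of the copies within each library, 7 of these 10 passed (84.6% of the 4251 pairs of the whole table did). In 6 of the 10 the S copy was called higher, against 38.2% of the 4251 pairs. With experiments 2 and 3 only, 10 of 10 passed, against 93.8% of all pairs. The largest gap was that of cdh1, where the L copy had 2, 4 and 3 reads in dorsal lips, 0 in each ventral lip and 3 in the whole embryo, while the S copy averaged 14.0 ± 8.14 RPKM in dorsal lips and 15.7 ± 9.72 RPKM in ventral lips (SD, n = 3 each). The log2 differences, L minus S on log2(RPKM + 0.5), were -4.74 for cdh1, -3.53 for the CDH23 match Xetrov90018212m and -3.41 for cdh26. All of these depend on the added 0.5 and understate the gap, because each L copy averaged less than 0.5 RPKM. Without it, the S copy averaged 40.3 times the L copy over the lips for Xetrov90018212m and 30.4 times for cdh26.

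ctnna1, pcdh1 and pcdh7 had differences of -2.42 (95% interval -2.61 to -2.23), -1.35 (-1.51 to -1.20) and -0.56 (-0.75 to -0.38), with limma adjusted p of 7.58e-07, 3.62e-06 and 0.000494. For ctnna1 this is an L copy at 0.183 times the level of the S copy. Among the 10 pairs only ctnnbip1 was called with the L copy higher, by 1.54 on the log2 scale (1.41 to 1.66), at 41.3 ± 10.2 RPKM for L against 14.3 ± 3.58 RPKM for S in dorsal lips. The cdh3 copies did not pass, at a difference of -0.005 and an interval of -0.15 to 0.14. This averages over experiments that differed. In experiment 1 the L copy was the higher in both lips, and with experiments 2 and 3 only the cdh3 pair passed, as all 10 pairs did. pcdh18 (-0.22) and pcdha13 (-0.25) did not pass without the block and did with it (limma adjusted p = 0.0034 and 0.0044), 9 of 10 pairs in all, against 94.7% of all pairs. For pcdh18 the L copy was the higher in experiment 1 and the S copy in experiments 2 and 3, in both lips.

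The dorsal minus ventral difference itself was not called to differ between copies in any of the 10 pairs, without the block (0.047% of all pairs) or with it (4.07%), and 0 of 10 had an unadjusted p under 0.05. For pcdh18 the difference between the copies was 0.01 on the log2 scale, with a 95% interval of -0.21 to 0.23 with the block. Reads that fit both copies could be placed on either or left out, since their treatment is not given in the sources used here, and the level differences carry that limit.

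**Figure D4:**
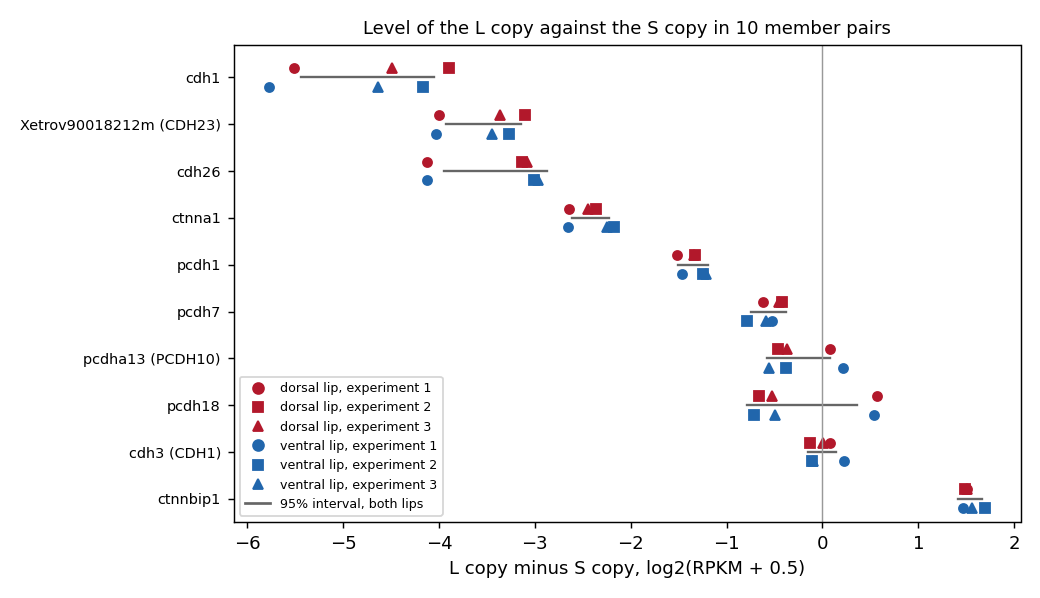
L copy minus S copy on log2(RPKM + 0.5) for the 10 member pairs tested, by library (red dorsal, blue ventral; circle, square and triangle for experiments 1, 2 and 3), with the 95% limma interval over both lips in grey. Points left of 0 have more RNA from the S copy, as for cdh1 at -4.74 and ctnna1 at -2.42; ctnnbip1 lies to the right at 1.54 and cdh3 around 0.

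The whole embryo library allows a comparison only within experiment 1 and without a replicate, so no test was made. Of 28 members with at least 1 RPKM on average in these 3 libraries, 1 differed by more than 2-fold between a lip and the whole embryo, against 2.38% of all transcripts for the dorsal and 1.81% for the ventral lip. This was LOC100498368-like.S, a transcript matched to PCDH18, at 0.511 RPKM in the dorsal lip, 0.628 RPKM in the ventral lip and 2.24 RPKM in the whole embryo (63, 78 and 308 reads), log2 differences of -1.44 and -1.28. Its levels in the lips of experiments 2 and 3 were under 0.12 RPKM. Of the 28, pcdh7.L was the lowest in the whole embryo relative to the dorsal lip and, by the smaller of its log2 differences, relative to both lips; it was at 3.26 RPKM in the dorsal lip, 3.14 RPKM in the ventral lip and 2.30 RPKM in the whole embryo, log2 differences of 0.42 and 0.38. Relative to the ventral lip alone, the lowest in the whole embryo was the CDH26 transcript Xelaev18046247m, at 1.12 RPKM in the dorsal lip, 1.69 RPKM in the ventral lip and 1.01 RPKM in the whole embryo (25, 38 and 25 reads), log2 differences of 0.10 and 0.54. The median member lay at -0.03 for the dorsal lip and 0.01 for the ventral lip relative to the whole embryo, against -0.06 and -0.02 over all transcripts. The authors' deposited table of transcripts that they relate to surgical injury has 744 entries, 4 of them members, where 221 of all 44421 transcripts are members. These 4 had 37 reads at most in a library of experiment 1. For example, cdh11.S had 15 and 13 reads in the dorsal and ventral lip of experiment 1 and 5 in the whole embryo.

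Between experiments, 7 of 29 members differed by more than 2-fold, against 18.2% of all transcripts, again as a description without a test; 5 were higher in experiment 1 (5.17% of all) and 2 lower (13.1%). Higher in the lips of experiment 1 than in those of experiments 2 and 3 were cdh1.S (1.32 on the log2 scale), pcdh7.L (1.16), pcdh7.S (1.18), pcdh18.L (1.13) and pcdha13.L (1.19). Lower in experiment 1 were cdh7.S, a type II cadherin, at 0.128, 1.58 and 1.17 RPKM in dorsal lips of experiments 1 to 3 and 0.148, 1.48 and 1.57 RPKM in ventral lips (-1.60), and the CDH4 transcript Xelaev18046239m (-1.08). In each of these 7 members both lips moved the same way between experiments. They were picked by the mean of both lips, which makes a shared direction likely. Over all transcripts tested, too, the dorsal and ventral libraries of experiment 1 deviated together (correlation 0.926). Among members below the limit for testing, cdh20.S had 86 and 105 reads in the dorsal and ventral lip of experiment 1, 7 and 9 in the dorsal lips of experiments 2 and 3 and 4 and 3 in the ventral ones. cdh3.S, in contrast, differed by 0.002 on the log2 scale.

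**Figure D5:**
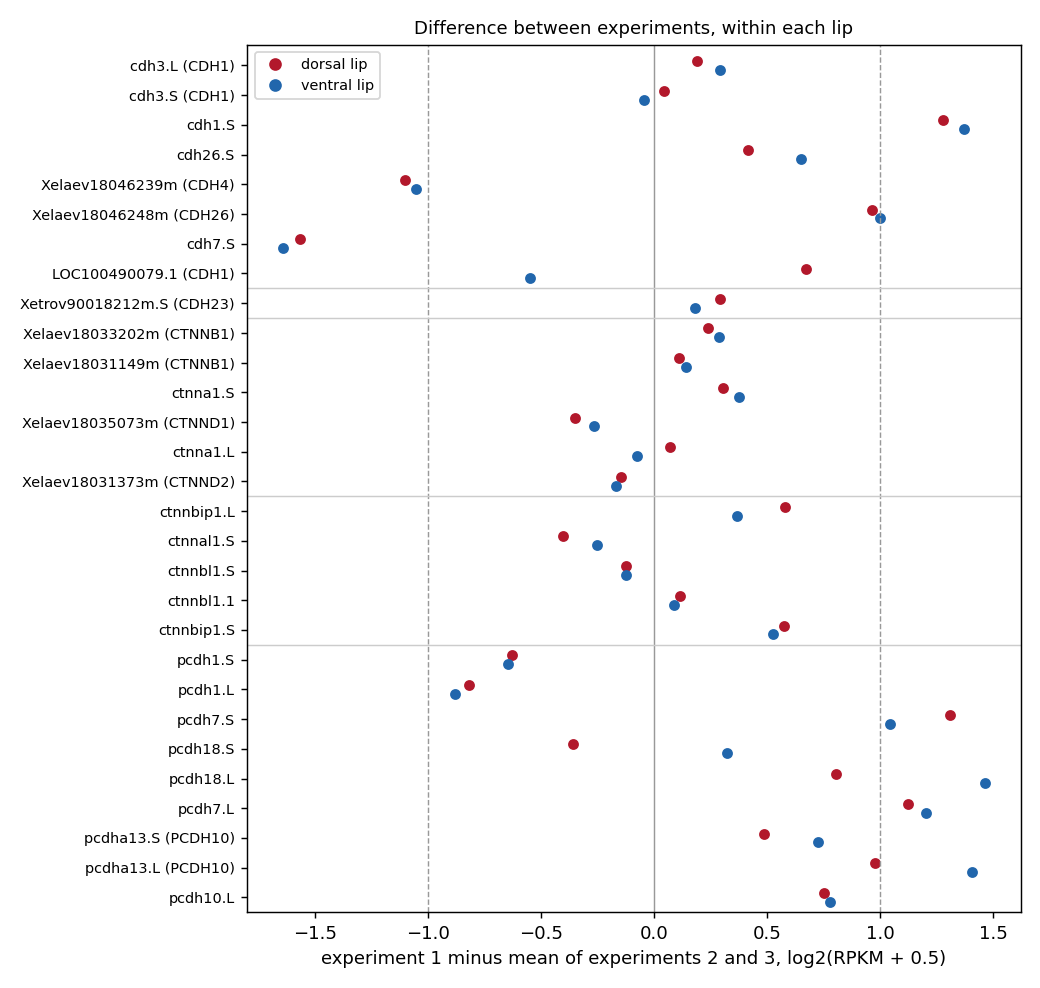
Experiment 1 minus the mean of experiments 2 and 3 on log2(RPKM + 0.5) for the 29 members tested, for dorsal lips (red) and ventral lips (blue); dashed lines mark 2-fold. The dorsal and ventral points of a member lie on the same side of 0 for each member past 2-fold, and the mean of both lips runs from -1.60 for cdh7.S to 1.32 for cdh1.S.

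Members found in the authors' own lists are set here against the size of the family, 221 of the 44421 transcripts in the expression table. Of 100 members with an adjusted p in the authors' deposited table, 4 are under 0.05 (pcdh18.S, pcdh18.L, pcdh9.S and pcdh10.S), against 3.38% of all 32728 transcripts with one. The authors' deposited table of dorsal transcripts has 315 entries and holds 2 members, the pcdh18 copies; that of ventral transcripts has 94 entries and holds 0. In the authors' deposited table of correlations to chordin, which draws on further kinds of samples that were not analysed here, pcdh18.S stands at 0.716, pcdh9.S at 0.515 and pcdh18.L at 0.364, against a median of 0.009 over the members with a value and 0.0063 over all transcripts with one. Other members below the limit for testing stand above pcdh18.L, among them LOC100489983.L at 0.393 and cdh19.L at 0.372. LOC101734004.L and Xelaev18017027m have the same coefficients as LOC100489983.L in every digit, to chordin and to bambi, so these rows are not told apart. In the authors' deposited table of correlations to bambi, the highest members are cdh1.S at 0.748, cdh24.S at 0.711, cdh26.S at 0.668 and cdh15.1 at 0.656, against a median of -0.0058 over members and -0.046 over all. Of these, cdh24.S and cdh15.1 were below the limit for testing.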

How the data were processed

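Lips and embryos were sequenced as single-end reads from polyadenylated RNA with an unstranded kit, per the labels' protocols, so reads of antisense partners cannot be told apart. RPKM values per transcript were deposited by the authors; per the file headers they rest on the JGI 9.1 gene models, with human symbols from protein BLAST. TopHat2 2.09 and DESeq are named in the submitters' processing notes. The adjusted p-value deposited by the authors used experiments 2 and 3, as did the ratio in their dorsal and ventral tables; the injury ratio sets each lip over the whole embryo, per the file headers. The correlation to chordin or bambi is a score deposited by the authors. For the counter and for reads with several placements, nothing is given in the sources used here.

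Whole reads were recovered from the RPKM steps for all 35326 transcripts above 0 (100.0%, tolerance 0.001 reads). The main test was limma 3.58.1 in R 4.3.3 (two-sided, eBayes with a trend), run on log2(RPKM + 0.5) where the 6 lips averaged 1 RPKM or more, without a block, with Benjamini-Hochberg adjustment over 16514 transcripts or 4251 L and S pairs. This scale understates the change of low transcripts. The fits were checked on simulated data. Dorsal and ventral libraries of the same experiment deviated together from the mean of their lip (correlations over transcripts 0.926, 0.881 and 0.819). The main test ignores this pairing, and its SE include the spread between experiments. Values from fits with the experiment as a block are therefore given beside it. Across experiments 2 and 3 the correlations were 0.748 and 0.839, the latter above the 0.819 within experiment 3. These values therefore set experiment 1 apart but do not show a pairing within experiments 2 and 3. Named members were those past a test, the copies of pcdh8, cdh1 to cdh3 and the main catenins, the 10 highest, the 5 largest changes each way, the called pairs, and the extremes against the whole embryo. Of the other lists, those called and the 3 smallest blocked p were named. Other copies of some of these genes, and the neural and endoderm markers named as not passing, were added after their values were seen. Further members named, such as pcdh9, pcdh10.S, PCDH19, cdh7.S, cdh20.S, Xelaev18046247m and the low cadherins, were chosen after their values were seen. Members and lists were chosen with earlier results of these data known. Of 66 members with an L or S symbol, 53 have it in the RefSeq gene table (assembly 10.1), used for names, synonyms and neighbours only. No sequences were used.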

Additional observations from a re-analysis of the deposited data

How the results depend on the processing

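The count of transcripts called between the lips was 54 in the test without a block, 777 with the replicate block, 698 with experiments 2 and 3 only, 1528 with these and the block, 1636 with voom and the block and 2140 with voom, the block and at least 30 reads; leaving out 1 library gave 21 to 139. The members called were 0, 0, 2, 3, 3 and 5 in the same order, and 0 with any 1 library left out, with voom alone and under the other alternatives. The 2 fits with 1528 and 2140 calls were chosen after seeing the data. The count of L and S pairs differing in level was 7, 4 with a limit of 5 RPKM, where 5 pairs were tested, 10 with experiments 2 and 3 only, 9 with the replicate block and 7 to 8 with 1 library left out; for their change it was 0 throughout. Against the whole embryo, the 2 differences past 2-fold became 1 with a pseudocount of 1 and 0 with a limit of 5 RPKM.

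Of 383 log2 differences of 23 named members under alternatives, 336 kept their sign and their side of the threshold, 36 changed sign and 11 came to pass it; no call was lost, as none stood. Median-ratio scaling, which moved the median of all transcripts to -0.01, changed the sign of ctnna1.S (0.0093), Xelaev18031149m (0.028), ctnnbip1.L (0.021) and pcdh7.S (0.0060; also 0.0052 and 0.0049 in the 2 voom fits with the block). Leaving out 1 library gave ranges that span 0 for cdh1.S (-0.57 to 0.32), ctnna1.S (-0.14 to 0.088), Xelaev18031149m (-0.063 to 0.029), Xelaev18035073m (-0.080 to 0.13), ctnnbip1.L (-0.22 to 0.098), ctnnbip1.S (-0.14 to 0.22), ctnnal1.S (-0.21 to 0.0073), cdh26.S (-0.055 to 0.34), LOC100490079.1 (-0.53 to 0.019), pcdh1.S (-0.35 to 0.074), pcdh1.L (-0.52 to 0.049), pcdh7.L (-0.27 to 0.50), pcdh7.S (-0.47 to 0.31), pcdha13.L (-0.55 to 0.24) and pcdha13.S (-0.38 to 0.025). These fits had no block, so leaving out 1 library also left the experiments unequal between the lips. Within each experiment cdh1.S, pcdh1.S and pcdh1.L lay lower in the dorsal lip. The part of this imbalance in the ranges was not tested. On RPKM from all 6 lips the block changed no call among the members; on recovered reads with voom it took the members called to 3 (pcdh1.L, pcdh10.L and pcdh18.S), and with experiments 2 and 3 only it added LOC100490079.1.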
